A study of Mus musculus with 2 samples.

Results

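The E2F transcription factors E2f1 to E2f8 and the pocket proteins Rb1 and Rbl1 were examined as a family in 2 murine melanoma cell lines. The members were taken by name: every probe on both arrays, controls excluded, whose gene symbol was that of a member was kept. All 10 members were on the array, out of 27790 genes or transcripts, and they were covered by 19 of 41174 probes. They divide into 3 activators (E2f1, E2f2, E2f3), 5 repressors (E2f4 to E2f8) and 2 pocket proteins (Rb1 and Rbl1, also called p107).

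RNA of the maternal line B16F1-GFP-M was compared with RNA of B16F1-GFP-D, the line derived from a dormant disseminated melanoma cell. Both are lines of B16F1 murine melanoma cells that carry green fluorescent protein, and both were grown untreated in DMEM with serum. B16F1-GFP-D came from a single colony of GFP-positive cells sorted from pooled organs of control and immunised tumour-free mice a year after they had received B16F1-GFP cells, so it stands for 1 clone that had also been re-expanded in culture. A figure legend of the authors describes the maternal line as clonal too. The lines were co-hybridised on 2 arrays with exchanged dyes: on array 1 B16F1-GFP-D carried Cy3 and B16F1-GFP-M Cy5, and on array 2 the reverse. Nothing in the labels ties the arrays to separate cultures, so they were counted as 1 replicate of each line. There is therefore no test of a difference between the lines. The SD given below is that between the 2 arrays, which holds dye effects and cannot be read as variation between cultures.

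E2F factors bind promoters of genes needed to enter and complete S phase, most of them as dimers with a DP protein. In resting cells and early G1, pocket proteins hold E2Fs and silence these promoters; cyclin-dependent kinases phosphorylate the pocket proteins, free the activators and so start the G1/S programme. E2f1, E2f2 and E2f3 recruit coactivators, E2f4 and E2f5 act mainly together with p107 and p130, and E2f6, E2f7 and E2f8 repress without a pocket protein. Several members are themselves E2F targets, and loss of this control is common in tumours.

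Between 44.1% and 60.7% of spots were well above background per line and array, and no spot was saturated. The 7 melanocyte markers were all detected, with none called and a median log2 ratio of -0.34; 4 were lower in B16F1-GFP-D on both arrays, the furthest being Mitf (-0.95 and -0.89) and Dct (-1.10 and -0.47, with a second probe at -0.03). The part of these markers in the results was not tested. The 4 endothelial and 4 epithelial markers were all undetected. Of 7 fibroblast markers 1 was detected (Col1a2, log2 ratio -0.33), and of 6 leukocyte markers 2 were (Cd3e, -0.01, and Lyz2, -0.11). In all that follows a log2 ratio above 0 means more signal in B16F1-GFP-D, the maternal line being the denominator, and a gene is given by its brightest probe unless another is named. A gene was detected when both arrays showed its probe well above background in the same line, or in both lines, and called when it was detected and differed by 2-fold or more, with matching sign, on each array.

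Of the 10 members, 9 were detected, and 4 of these were called higher in the DMC-derived line: the activators E2f1 and E2f2, the repressor E2f8 and the pocket protein Rbl1. No member was called lower. Among all 12539 detected genes, 3.09% were called higher and 1.95% lower by the same rule, and the median log2 ratio was -0.01. At these shares a short gene list would often hold no call, so few or no calls in such a list are not read as a result. No class stood as a block: each class held a called member beside at least 1 whose ratio was near or below 0. Because a culture was measured as a whole, more cells that express a gene and more RNA per cell cannot be told apart.

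**Figure D1:**
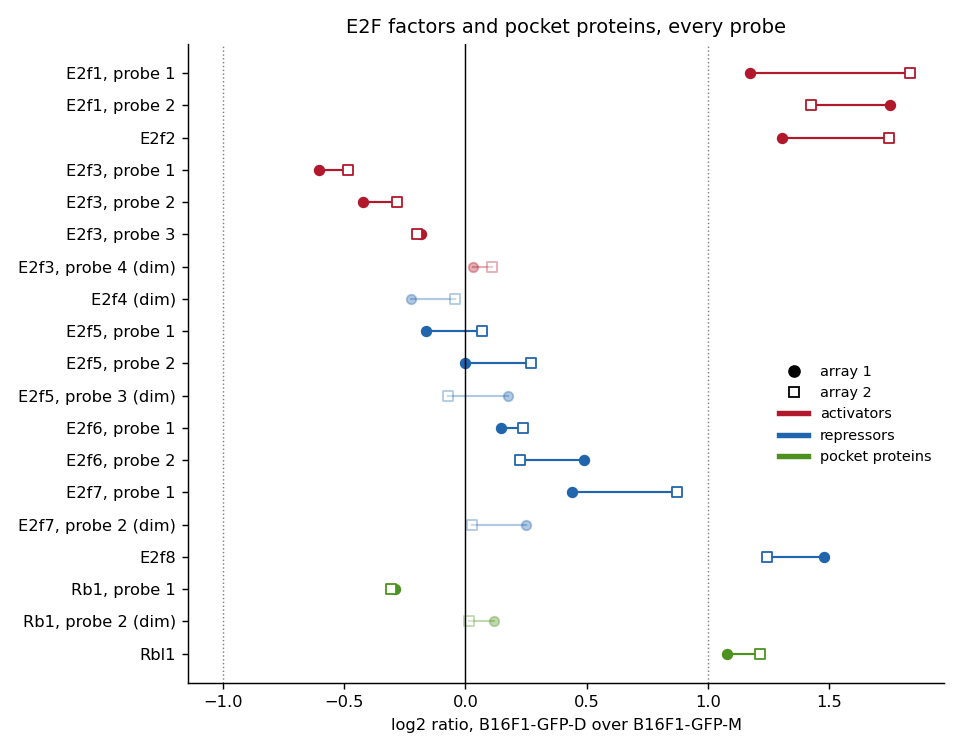
The log2 ratio (horizontal axis, B16F1-GFP-D relative to B16F1-GFP-M) is drawn for each of the 19 member probes (vertical axis), with a circle for array 1, a square for array 2 and paler marks for probes not detected; dotted lines mark 2-fold. Both E2f1 probes and the probes of E2f2, E2f8 and Rbl1 lie beyond 2-fold on each array, while the 3 detected E2f3 probes and the brighter Rb1 probe lie below 0.

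Among the activators, E2f1, which drives S-phase entry and can also trigger apoptosis, was 2.83-fold higher in B16F1-GFP-D. Its log2 ratio was 1.17 on array 1 and 1.83 on array 2 (mean 1.503, SD 0.47). The normalised log2 intensity of this probe was 9.56 and 9.92 in B16F1-GFP-D against 8.38 and 8.09 in B16F1-GFP-M on arrays 1 and 2, so the lines did not overlap. The gap between the arrays was the widest of any detected member probe. A second probe of the gene, printed 10 times on each array, gave 1.75 and 1.42 (mean 1.59, SD 0.23). Its 10 spots lay between 1.71 and 1.80 on array 1, and the 9 spots used on array 2 lay between 1.26 and 1.505. Thus all spots of that probe were more than 2-fold higher, and the arrays were in the opposite order to that of the brighter probe. The brighter probe lies at chr2:154386004-154386063 and the repeated probe at chr2:154385742-154385801 on the minus strand of mm9, the build of the array files.

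E2f2, an activator with roles close to those of E2f1, was 2.88-fold higher, the largest ratio of any member by brightest probe. Its single probe (chr4:135750562-135750621, plus strand) gave 1.30 on array 1 and 1.75 on array 2 (mean 1.53, SD 0.31). The intensities were 10.44 and 10.88 in B16F1-GFP-D and 9.14 and 9.13 in B16F1-GFP-M. The B16F1-GFP-M values were nearly identical on both arrays, and both B16F1-GFP-D values were above them. Of the detected genes, 99.1% had a lower ratio than E2f2 and 99.0% a lower ratio than E2f1.

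E2f3, the third activator and in many tissues the main E2F of proliferating cells, did not follow the other two. Its brightest probe (chr13:29998480-29998539, minus strand) gave -0.60 and -0.48 (mean -0.54, SD 0.09), or 1.46-fold lower in B16F1-GFP-D and short of the 2-fold rule. The intensities were 9.48 and 9.47 in B16F1-GFP-D and 10.08 and 9.95 in B16F1-GFP-M, so here the maternal line was the higher on both arrays. Another pair of E2f3 probes was detected, and both were below 0 on each array, with means of -0.35 (SD 0.10) and -0.19 (SD 0.01). Their mapped spans of 3387 and 1087 bases for 60-base probes mean that they cross introns. The last E2f3 probe was not detected. The ratio of E2f1 exceeded that of E2f3 by 1.78 on array 1 and 2.32 on array 2 (mean difference in log2 ratio 2.05, SD 0.38), and that of E2f2 exceeded it by 1.91 and 2.23 (mean 2.07, SD 0.23). Both differences are several times the SD between arrays. That SD is not a spread between cultures, so the split of the activators is a description.

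**Figure D2:**
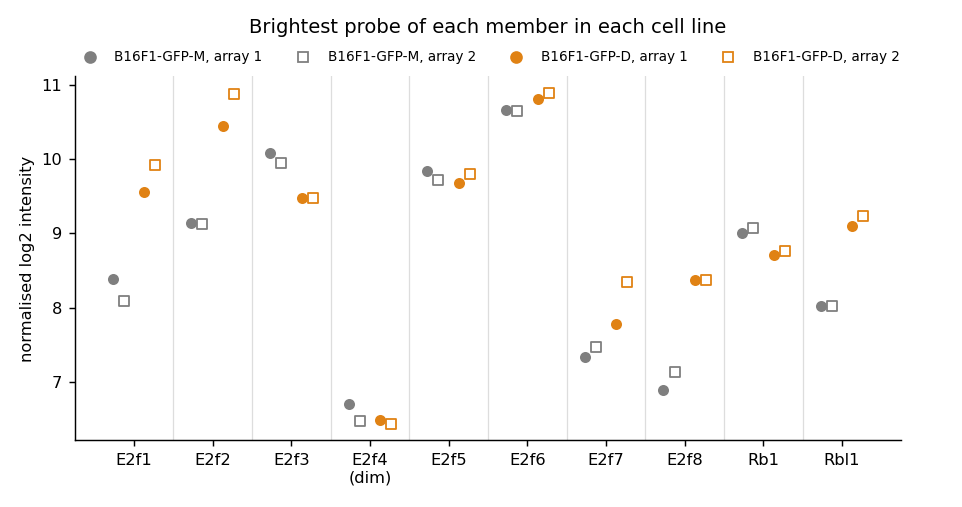
Normalised log2 intensity (vertical axis) of the brightest probe of each member is drawn for B16F1-GFP-M (grey) and B16F1-GFP-D (orange), with circles for array 1 and squares for array 2; intensities may be compared between lines for a probe, not between genes. For E2f1, E2f2, E2f6, E2f7, E2f8 and Rbl1 both orange points lie above both grey points, for E2f3 and Rb1 both lie below, and the lines interleave for E2f4 and E2f5.

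The repressors were also divided. E2f8, an atypical E2F that binds DNA without a DP partner and dampens E2F targets later in S phase, was 2.57-fold higher. Its probe (chr7:56122022-56122081, minus strand) gave 1.48 and 1.25 (mean 1.36, SD 0.16), with intensities of 8.38 and 8.38 in B16F1-GFP-D against 6.90 and 7.13 in B16F1-GFP-M. The lines were well apart on both arrays, although in B16F1-GFP-M the raw signal was only 2.70 and 3.03 times the local background. E2f7, the other atypical E2F, gave 0.44 and 0.87 (mean 0.66, SD 0.31), or 1.58-fold, at chr10:110224153-110224212 on the plus strand. E2f7 was above 0 on both arrays but was not called, and its second probe was not detected. The ratio of E2f8 exceeded that of E2f7 by 1.04 and 0.37 (mean 0.70, SD 0.47), a gap that differed widely between the arrays.

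The remaining repressors had ratios near 0 or could not be measured. E2f6, which represses through Polycomb proteins, gave 0.15 and 0.24 with its bright probe (mean 0.19, SD 0.06; chr12:16833463-16833522, plus strand). A dimmer E2f6 probe was well above background in B16F1-GFP-D alone and gave 0.49 and 0.22 (mean 0.36, SD 0.19), or 1.28-fold. B16F1-GFP-M was not well above background there on either array, so the size of that difference is uncertain. E2f5, a partner of p107 and p130, gave -0.16 and 0.07 (mean -0.05, SD 0.17; chr3:14605964-14606026, plus strand), and a second detected probe gave -0.00 and 0.27 (mean 0.14, SD 0.19). Neither E2f5 difference exceeded its SD, and the signs on the arrays did not match. The last E2f5 probe was not detected. E2f4, the main E2F of resting cells, was not detected on both arrays in either line: its only probe (chr8:107829156-107829215, plus strand) was well above background on 1 array in each line, with ratios of -0.22 and -0.04. Its level could not be compared at this signal.

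The pocket proteins stood apart. Rbl1, whose protein p107 binds mainly E2f4 and E2f5 and rises in cycling cells, was 2.21-fold higher in B16F1-GFP-D. Its probe (chr2:156972143-156972202, minus strand) gave 1.08 and 1.22 (mean 1.15, SD 0.10), with intensities of 9.10 and 9.24 in B16F1-GFP-D and 8.03 and 8.02 in B16F1-GFP-M. Rb1, the retinoblastoma protein and the classical brake on the activators, gave -0.29 and -0.31 (mean -0.30, SD 0.01), or 1.23-fold lower. Its 10 spots per array, at chr14:73595408-73595467 on the minus strand, lay between -0.36 and -0.24 on array 1 and, for the 9 used, between -0.38 and -0.25 on array 2. Every spot used was thus below 0, though none approached 2-fold, and the other Rb1 probe was not detected. The ratio of Rbl1 exceeded that of Rb1 by 1.37 and 1.52 (mean 1.44, SD 0.11).

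The contrast between the classes was small beside the spread within them. Over detected members, the mean log2 ratio of the 3 activators was 0.62 on array 1 and 1.03 on array 2, and that of the 4 detected repressors was 0.48 and 0.61. Activators minus repressors gave 0.15 and 0.43 (mean 0.29, SD 0.20). Within the activators the brightest probes spanned -0.54 to 1.53, and within the repressors -0.05 to 1.36. The 2 classes overlapped over most of that range, and class membership separated neither the higher nor the lower members. Members are not replicates of a class, so no test was made.

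**Figure D3:**
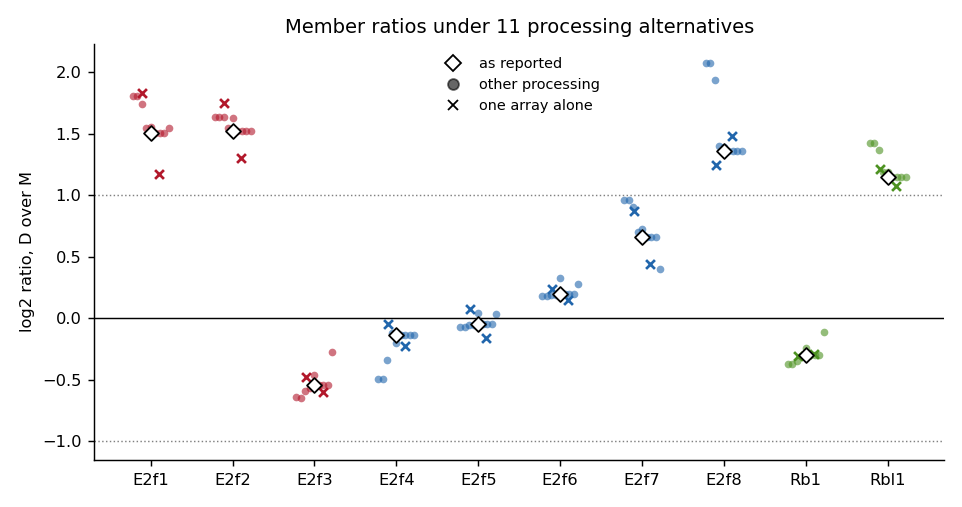
The log2 ratio of each member (vertical axis; dotted lines mark 2-fold) is drawn as reported (diamond), under the other processing alternatives (dots) and for each array alone (crosses). E2f1, E2f2, E2f8 and Rbl1 stay above 1 in all 11 alternatives, E2f3 and Rb1 stay below 0, and only E2f5 takes both signs. Aquantile scaling and a changed rule of detection cannot alter a member's ratio, and the series table nearly repeats the scanner ratio. The calling rule already puts each array alone at 1 or more for called members. A median over probes repeats the only probe of E2f2, E2f8 and Rbl1. The scanner ratio and the other background treatments put the called members further above 1 than as reported.

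Because several members are E2F targets themselves, their promoters were searched for the E2F core in its 4 exact forms (TTTCCCGC, TTTCGCGC, TTTGCCGC and TTTGGCGC) and for the CHR core TTTGAA, the element read by the DREAM and MuvB complexes, on both strands. The windows were those of RefSeq on GRCm38.p6, 250 bases before to 50 after a start, and 7 members had at least 1 window in the table. An E2F core was present in 4 of these 7 genes (E2f2, E2f3, E2f7 and Rbl1) and a CHR core in 3 (E2f2, E2f3 and E2f8), against 2.60% and 20.2% of all 27025 genes with a window. Counted by window, these were 4 and 3 of 9 member windows, against 2.26% and 17.9% of all 32851 windows. The matching stretches are printed to show where the letters lie in called and uncalled members. Capitals mark the core as it reads on the strand of the gene, and no E2F core overlapped a CHR core. The stretches are chr4:136172294-136172323 (plus strand), chr2:157204535-157204612 (minus), chr13:29986064-29986146 (minus), chr10:110745189-110745308 (plus) and chr7:48881597-48881676 (minus), in the order of the lines.
E2f2: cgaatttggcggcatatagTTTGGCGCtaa
Rbl1: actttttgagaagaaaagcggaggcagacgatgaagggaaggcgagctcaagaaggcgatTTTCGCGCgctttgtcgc
E2f3: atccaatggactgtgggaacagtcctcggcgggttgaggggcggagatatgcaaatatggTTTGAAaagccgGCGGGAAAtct
E2f7: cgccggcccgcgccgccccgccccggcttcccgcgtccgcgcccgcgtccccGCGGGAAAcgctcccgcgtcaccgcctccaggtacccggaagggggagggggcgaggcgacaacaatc
E2f8: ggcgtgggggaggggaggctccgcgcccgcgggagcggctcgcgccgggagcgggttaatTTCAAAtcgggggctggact

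The E2F core began 39 bases after the start in E2f2 and 18 bases before it in Rbl1, both called members. It also lay 11 bases before the start of E2f3 and 198 bases before that of E2f7, on the opposite strand in both, although neither gene was called and E2f3 was the lower in B16F1-GFP-D. In E2f3 a CHR core lay 23 bases before the start, and in E2f8 a CHR core on the opposite strand lay 20 bases before it. The CHR core of E2f2 was in a second window whose start lies 8508 bases inside the gene. The windows of E2f1 and E2f6 held none of these letters. The starts of the E2f1, E2f6 and E2f8 windows lie 466, 56 and 477 bases inside the gene, so the distance given for E2f8 is not from its outermost start, and the E2f1 window does not cover that of E2f1. The presence of a core thus did not divide the called from the uncalled members, and a match is a description of letters, not of binding.

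Among all detected genes 3.09% were called higher and 1.95% lower, so a count of calls in a list this short says little. The partners of the E2Fs and the subunits of the DREAM and MuvB complexes were all detected, and 1 of these 10 genes was called. This was Mybl2 (B-Myb), which joins MuvB to activate late cell cycle genes, at 1.23 (SD 0.13). Tfdp1, the main DP partner, gave 0.93 and 1.11, and Foxm1, which follows B-Myb on G2/M promoters, gave 0.98 and 1.21, so both passed 2-fold on array 2 alone. The MuvB core was mixed: Lin9 gave 0.62, Lin54 0.52 and Rbbp4 0.29, while Lin52 gave -0.53 and Lin37 -0.45. A second detected Lin9 probe gave 0.19, and the other detected Rbbp4 probes gave 0.21 to 0.65. Rbl2, which encodes p130, the pocket protein of resting cells, gave 0.14 (SD 0.16) and did not differ beyond its SD by the brightest probe. A second detected Rbl2 probe gave 0.13 and 0.12 (SD 0.00), a small difference that exceeded its SD. The second DP gene, Tfdp2, gave -0.53 (SD 0.11), although a second detected probe of it gave -0.14. The median of the list was 0.40.

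Upstream of the pocket proteins, the cyclins differed among themselves. Ccnd2, a D-type cyclin that directs Cdk4 and Cdk6 to Rb1, was the only gene of these lists called lower, at -1.19 and -1.20 (mean -1.20, SD 0.00), and its 3 probes had means of -1.24 to -1.13. Ccne1, which activates Cdk2 at the G1/S boundary and is an E2F target, was called higher at 1.25 and 1.33 (mean 1.29, SD 0.06). Ccne2 gave 0.82, Cdk2 0.77, Ccnd3 0.56 and Cdk4 0.52, whereas Ccnd1 gave -0.02 (SD 0.08) and Cdk6 -0.18 (SD 0.22). D-type cyclins thus stood below, near and above 0, and both E-type cyclins stood above it.

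None of the 5 detected CDK inhibitors was called, beside 3.09% called higher and 1.95% lower among all detected genes. The lack of calls in this list and in the degradation factors is therefore not read as a result. The lowest were Cdkn1b (p27) at -0.83 (SD 0.08) and Cdkn1a (p21) at -0.77 (SD 0.06), which block Cdk2 complexes, and each was below 0 on both arrays. Of the INK4 genes, whose products block Cdk4 and Cdk6, Cdkn2d gave 0.93 (SD 0.22) and Cdkn2c 0.50 (SD 0.21), and Cdkn2a and Cdkn2b were not detected. Cdkn1c (p57) gave 0.42 from a dim probe, with intensities of 6.81 and 7.01 in B16F1-GFP-D and 6.38 and 6.59 in B16F1-GFP-M. It dropped out when both lines had to be well above background, so the size of that difference is uncertain. The 5 degradation factors were all above 0 on both arrays, with none called: Ccnf, which targets E2F proteins for destruction, gave 1.05 (SD 0.13), Fbxo5, which holds back the anaphase-promoting complex, 1.01, Cks1b 0.94, Fzr1 0.47 and Skp2, which destroys p27, 0.31. A second Fzr1 probe gave 1.04, so the probes of that gene disagreed in size.

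The proteins through which E2f6 and Rb1 silence genes had list medians near 0. Among 10 partners of E2f6 in the PRC1.6 complex the median was 0.07, and the only call was L3mbtl2, a reader of the complex, at 1.09 (SD 0.01). Its second detected probe gave 0.15, so that call rests on the brighter probe. Cbx3 (0.59) and Pcgf6 (0.34) followed, and the lowest were Ring1 (-0.40), Rybp (-0.38) and Rnf2 (-0.16). The second detected Pcgf6 probe gave -0.09 and 0.16 (mean 0.04), so the place of Pcgf6 rests on its brighter probe. A second detected Rybp probe gave 0.21 and 0.33, so the probes of Rybp disagreed in direction. Among 8 RB corepressors none was called and the median was -0.12. The shares called among all detected genes were 3.09% higher and 1.95% lower, so the counts of calls in these 2 lists are not read as a result. The histone methyltransferase Suv39h1 was the highest (1.04, SD 0.14), before Hdac1 (0.52) and Sin3a (0.32). The demethylases Kdm5b (-0.68) and Kdm5a (-0.41) were the lowest with Arid4a (-0.40). A second detected Kdm5b probe gave -0.10, and the other detected Kdm5a probes gave -0.40 and -0.08.

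**Figure D4:**
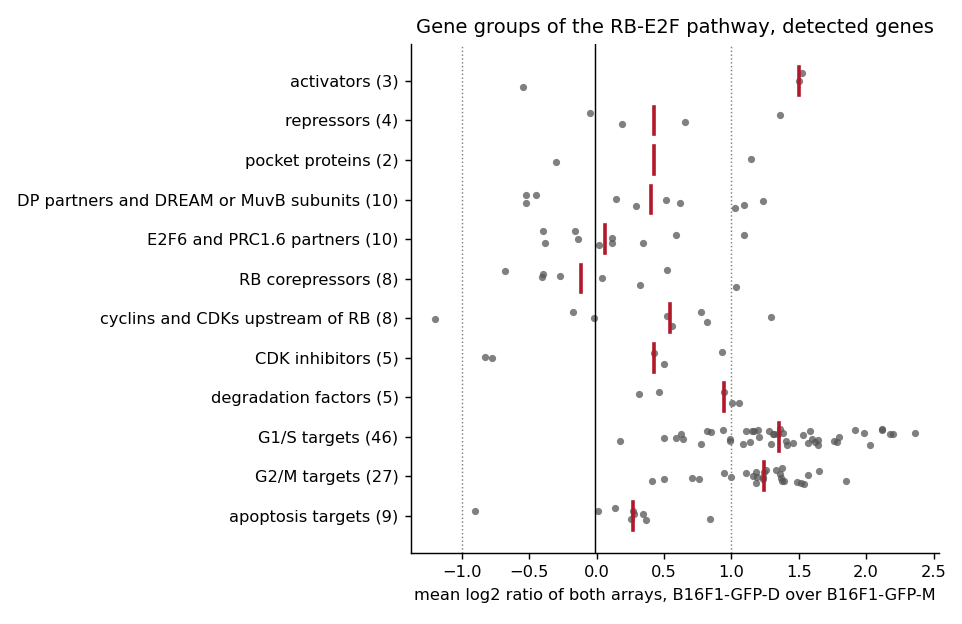
Each point is a detected gene at its mean log2 ratio over both arrays (horizontal axis), grouped by list (vertical axis, with the number of detected genes); red bars are list medians, the solid line is the median of all detected genes and dotted lines mark 2-fold. The target lists of G1/S and G2/M lie wholly to the right of the solid line, while E2F6 partners and RB corepressors lie on both sides of it.

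The G1/S and G2/M targets of the pathway were mostly called higher in B16F1-GFP-D. Of 46 G1/S genes, which E2Fs bind directly, all were detected, 35 were called higher and none lower, with a median log2 ratio of 1.35 (1.37 on array 1 and 1.35 on array 2). The highest were Ung, which removes uracil from DNA, at 2.36, Rrm2, a ribonucleotide reductase subunit, at 2.20, and Mcm3, a subunit of the replicative helicase, at 2.17. Among the lowest were Brca1 at 0.17 and Rfc4 at 0.59. Brca1 gave 0.00 and 0.35 and was the only gene of the list whose difference did not exceed its SD.

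Of 27 G2/M genes, whose promoters are read by DREAM in resting cells and by B-Myb and Foxm1 in cycling cells, all were detected, 19 were called higher and none lower, with a median of 1.24 (1.10 and 1.35). The highest were the mitotic kinase Aurkb at 1.85, Cdk1 at 1.65 and the ubiquitin ligase partner Ube2c at 1.57, and the lowest were Ttk at 0.41, Dlgap5 at 0.50 and Kif11 at 0.71. A dimmer detected Kif11 probe gave 0.23. The share called higher was thus 76.1% of the G1/S list and 70.4% of the G2/M list, against 3.09% of all detected genes. The 2 lists differed in promoter letters: of the genes with a window, an E2F core was present in 16 of 36 G1/S genes and 1 of 21 G2/M genes, and a CHR core in 5 and 14. The lists were drawn up as known targets of E2Fs and of DREAM, B-Myb and Foxm1. Their letters are thus tied to that choice and are given as a description, not as a result. The shares among all genes with a window are those given for the members.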

How the data were processed

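Total RNA of both lines was hybridised on 2 Agilent 2-colour arrays with exchanged dyes. The deposited intensities of spots and local background were extracted by the authors with Agilent Feature Extraction 10.7.3.1 and are not normalised. The deposited log10 ratios (Cy5 over Cy3) and the series value table were used as alternatives. Other columns were the authors' flags for spots above background, outliers and saturation, per the file headers, and a p-value per spot, which was not used. Here, in R 4.3.3 with limma 3.58.1, intensities were corrected by normexp (offset 50) and normalised by loess within each array, with control spots weighted 0 and outlier spots (143 and 176) left out. Ratios were turned to log2, B16F1-GFP-D relative to B16F1-GFP-M, and averaged per probe, and the brightest probe stood for a gene. Line intensities were made after loess by Aquantile. Of 28075 probes with a RefSeq accession, 27190 were named from the GRCm38.p6 table; probe positions are on mm9, for which exon and UTR annotation was not used here. The call is a rule of size. The script was checked on simulated data.

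The members and gene lists were chosen with earlier results of these data known. All member probes were named, with every gene of the partner, cyclin, inhibitor and degradation lists and the 3 highest and 3 lowest of the others, except genes not reported here. Tables were made with pandas 2.3.3 and numpy 2.4.6, and figures with matplotlib 3.10.9, under Python 3.11.15.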

Additional observations from a re-analysis of the deposited data

How the results depend on the processing

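The same 4 members were called under all alternatives but a 3-fold threshold and median centring in place of loess, which both called 0. Several alternatives could not have removed a call. A member past 2-fold on each array also passes at 1.5-fold, on the mean of the arrays and on either array alone. Aquantile scaling and dropping the filter on dim probes leave its ratio unchanged. E2f2, E2f8 and Rbl1 have 1 probe each, so a median over probes repeats it. The calls were kept with the scanner ratio, series table, a normexp offset of 0 or no background subtraction. In each of these, the mean ratio of every called member was further above 1 and more genes were called in all. They were thus not stricter settings. Under median centring the arrays moved apart (E2f1 0.23 and 2.88, E2f2 0.30 and 2.96, E2f8 0.82 and 1.96, Rbl1 0.19 and 2.18), while the means stayed above 1. Genes called numbered 631, and 1355 with the log ratio of the scanner, 1351 with the values of the series table, 1076 with a normexp offset of 0, 64 with median centring, 1979 at 1.5-fold and 123 at 3-fold; a single array gave 798 to 819. Activators minus repressors gave 0.29 to 0.56 with a single array, where E2f4 counted as detected, and stayed above 0 in all 11 alternatives, from 0.15. The G1/S median was 1.601 with the scanner ratio and 1.6003 with the series table, 1.55 with the offset of 0, 1.51 with median centring and 1.31 when a gene's probes were taken at their median. By the scanner ratio E2f8 reached 2.08 and E2f7 0.96. With the median of its probes E2f3 was -0.27 and Rb1 -0.12. That median takes in probes that were not detected, such as those of E2f3 (0.07) and Rb1 (0.07). E2f5 kept its sign in 8 of 11 alternatives, but Aquantile scaling and a changed rule of detection could not alter a member's ratio. The median of detected genes ranged from -0.04 to 0.07. The causes were not tested. No paired analysis was possible because the arrays form a single group with 1 replicate per line. The 2 arrays limit the precision, and E2f8 and E2f7 were nearest to background in B16F1-GFP-M among the detected brightest probes.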

Other observations

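Among 10 genes of the apoptosis arm of E2f1, 9 were detected and none was called, with a median log2 ratio of 0.27. With 3.09% of all detected genes called higher and 1.95% lower, the lack of calls in this list is not read as a result. Among the higher ratios were those of Apaf1, a core of the apoptosome, at 0.36 and of Casp8, an initiator caspase, at 0.34. The other detected Apaf1 probes gave 0.19 and 0.15. Casp8 differed between the arrays, at 0.12 and 0.56 (SD 0.31). Bbc3 (Puma), which promotes cell death at mitochondria, was the lowest at -0.89 and -0.92 (mean -0.90, SD 0.02), and Bid (0.01) and Trp73 (0.14) followed.

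Of 12 germline genes that E2f6 is known to silence in somatic cells, 11 were on the array and 1 was detected. This was Tuba3a, called higher at 1.40 and 1.34 (mean 1.37, SD 0.04), but its second probe was not detected, and tubulin genes are nearly identical to each other, so the bright probe may read other tubulins. The other germline genes, such as Stag3, Smc1b and Sycp3, were not detected in either line.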
